A study of Mus musculus with 6 samples.

Results

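The genes described here encode the machinery that carries a newly made protein into the endoplasmic reticulum (ER), glycosylates it and moves it to the Golgi. They were taken from a list of 52 symbols in 8 classes, namely the signal recognition particle and its receptor, the Sec61 channel with Sec62 and Sec63, the translocon-associated protein (TRAP) complex, the signal peptidase complex, the oligosaccharyltransferase, the COPII coat, the cargo and retrieval receptors, and the COPI coat with *Arf4*. All 52 were found among the 37224 genes of the count table, and 51 had enough counts for the test of the stages.

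A secretory protein is recognised on the ribosome by its signal peptide, which the signal recognition particle binds and brings to a receptor on the ER membrane. The chain then threads through the Sec61 channel while the signal peptidase removes the signal peptide and the oligosaccharyltransferase attaches N-glycans. Folded cargo leaves the ER in vesicles with a COPII coat, and vesicles with a COPI coat bring escaped ER proteins and receptors back. Acinar cells of the pancreas, which make digestive enzymes, are among the most active secretory cells of the body.

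RNA Seq was carried out on whole embryonic pancreata of wild type (wt) mice of the strain labelled C57/Bl6J at 13.5 and 15.5 days post coitum (dpc). Each stage had 3 samples, each of them a biological replicate that the methods describe as a pool of up to 3 embryos. No allele, treatment or control group was part of these 6 samples, and the single comparison was 15.5 against 13.5 dpc. Polyadenylated RNA was sequenced from strand-specific libraries, and every value is a count of reads per gene.

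Total counts ranged from 10546028 to 16389237 per sample. The 15.5 dpc samples differed more among themselves than the 13.5 dpc samples did. Between 15.5 dpc samples 1 and 2 the squared difference per gene was 63.2 times what counting error gives, against 1.61 to 4.94 times for the pairs of 13.5 dpc samples. The deviation of a gene from its stage mean correlated with its exon length across genes in both of these samples, with a Spearman rho of -0.57 in 15.5 dpc sample 1 and 0.58 in 15.5 dpc sample 2. The count of members called is therefore also given with that length trend removed and without each sample. All 12 acinar markers had counts at both stages. At 13.5 dpc *Amy2a5* (1.44 to 3.43 normalised counts) and *Pnlip* (3.43 to 12.2) were near the floor. Together the acinar markers took 0.640 to 0.759% of the counts at 13.5 dpc and 6.78%, 3.36% and 4.67% in 15.5 dpc samples 1, 2 and 3. Mesenchyme markers took 1.03 to 1.17% at 13.5 dpc and 0.601%, 1.04% and 0.875% at 15.5 dpc. No marker of the 9 cell type lists was at 3 counts or fewer in all 6 samples.

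Most of the 51 members tested were expressed at a higher level at 15.5 dpc. With edgeR's quasi-likelihood test over all 15578 genes tested and a Benjamini-Hochberg adjusted p of at most 0.05, 36 of the 51 tested members rose and 0 fell, where 11.6% of all genes rose and 10.7% fell. DESeq2 also called 0 members lower, with 12.2% of all genes. At an unadjusted p of at most 0.05, 43 members were higher and 1 was lower. Of all 15578 genes, 3147 were higher and 2943 lower at that unadjusted p. The fitted log2 fold change was positive for 49 members and negative for 2, *Sec23a* and *Sec24b*. Its median over the members was 0.75, a fold of 1.68, and that of all genes was -0.01. Together the members took 0.940 to 0.963% of the counts at 13.5 dpc and 1.28 to 1.45% at 15.5 dpc. In whole tissue, more cells of a type that expresses a gene strongly and more RNA per cell cannot be told apart.

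The 3 samples of one stage lay wholly above those of the other for most members. At 15.5 dpc 43 members were higher in this sense, 1 was lower and 7 overlapped, while 22.8% of all genes were wholly higher and 23.6% wholly lower. The thresholds of the study, which applied them to DESeq2, were used on the edgeR fit. They ask for an adjusted p of at most 0.1, a mean above 100 normalised counts at either stage and a fold above 1.6 or below 0.6 in a protein-coding gene. They were met by 27 members (28 with DESeq2), all higher at 15.5 dpc, against 6.47% of 14011 protein-coding genes higher and 3.9% lower. DESeq2 called 39 members higher, with 15.2% of all genes. With the length trend removed edgeR called 43, with 17.97% of all genes, and the median over the members was 0.72. The count depended on single samples. Without 13.5 dpc sample 1, 2 or 3 it was 17, 18 and 17, with 4.54%, 4.7% and 5.04% of all genes called higher, and without 15.5 dpc sample 3 it was 23, with 5.4%. Without 15.5 dpc sample 1 or 2 it was 41 in either case, with 14.1% and 24.7% of all genes called higher. Among the 36 members called, 17 kept the call whichever sample was left out.

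**Figure D1:**
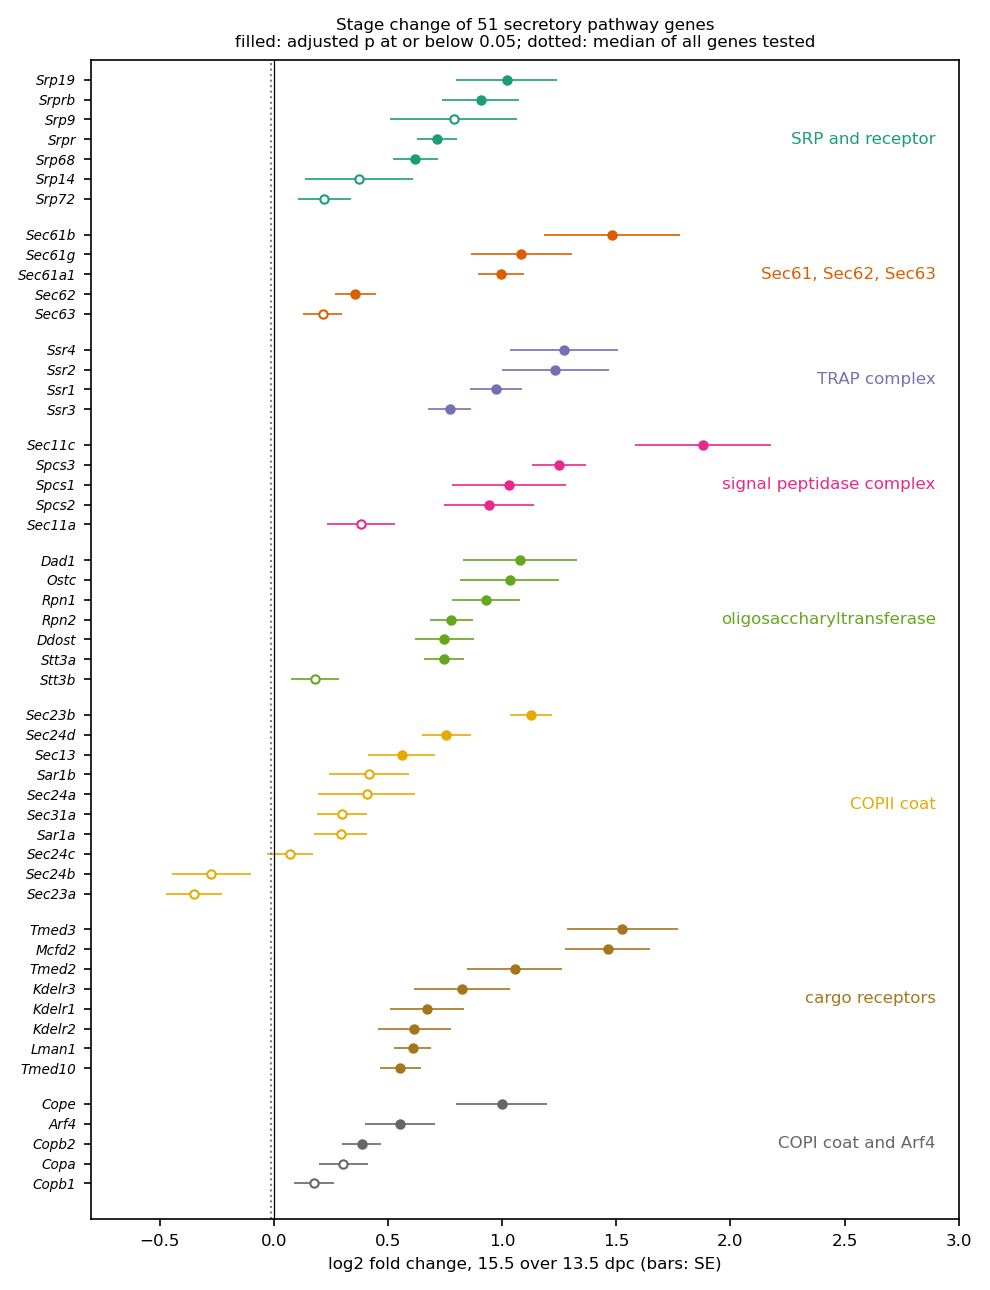
Log2 fold change of normalised counts, 15.5 over 13.5 dpc (x axis), of each of the 51 members tested (y axis), by class, with bars for the SE. Filled points have an adjusted p of at most 0.05 and open points do not, and the dotted line is the median of all genes tested. All filled points lie to the right of 0, and *Sec23a* and *Sec24b* are the 2 points to its left.

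Members differed widely in level. Per length, in FPKM (normalised counts per kilobase of exon, scaled for depth), the highest level at both stages was that of *Ssr2*, the beta subunit of TRAP, with a mean of 304 at 13.5 dpc and 716 at 15.5 dpc. It was followed at 15.5 dpc by *Ddost* (333), *Ostc* (299), *Tmed3* (263), *Rpn1* (203) and *Sec61b* (197). *Ssr2* was at 497 FPKM or more in each 15.5 dpc sample and *Ddost* at 392 or less, so these 2 neighbours did not overlap. From *Ddost* down to *Sec61b*, each gene overlapped the next in that order over the 15.5 dpc samples. Among the 51 members tested, the lowest per-length levels at 15.5 dpc were those of *Sec61g* (1.57), *Sec24a* (3.48), *Sec24b* (10.7) and *Sec23a* (11.1). Exon length here joins the exons of every transcript, so it understates the level of a gene with long, rarely used exons.

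**Figure D2:**
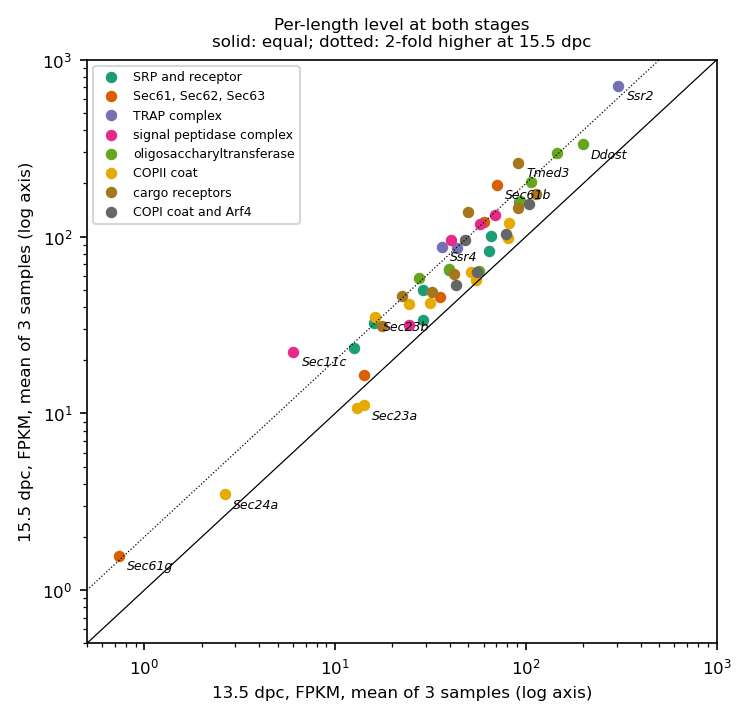
Mean per-length level (FPKM) of each member at 13.5 dpc (x axis) and 15.5 dpc (y axis), both axes logarithmic, coloured by class. Points above the solid line were higher at 15.5 dpc, and those near the dotted line were about 2-fold higher. *Ssr2* is at the upper right and *Sec61g* at the lower left.

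Promoter windows from RefSeq (GRCm38.p6), each of 250 bases before and 50 after a start site, were matched to 42 of the members. They were searched on both strands for 3 sequences known from promoters of ER chaperone genes. Of the transcription factors of the unfolded protein response, *Xbp1* rose and *Atf6* was not called, as given further on. The ER stress response element, CCAAT and CCACG separated by 9 bases, was in 0 of 42 members and in 0.178% of the 11251 tested genes with a window. Its second form, ATTGG and CCACG separated by 1 base, was in 0 of 42 and in 0.0711% of those genes. The core GACGTG, which XBP1 and ATF6 can bind, was in 15 of 42 members, or 35.7%, and in 10.5% of those tested genes. The ER stress elements end in CCACG and overlap the core, read on the other strand, where TC follows. No match says only that these letters were not in the window, and a match is a description and not a site of binding.

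The 18 cores in the 15 members are listed here with up to 12 bases on each side, read so that the core is GACGTG, which is in capitals. Each is given with its position in GRCm38.p6 and with whether it is read on the strand of the gene or on the other strand.
Srp14, chr2:118479697-118479726, gene strand: ggattgacggaaGACGTGcaactaaagcgg
Sec24d, chr3:123267459-123267488, gene strand: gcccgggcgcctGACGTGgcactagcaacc
Sec13, chr6:113740665-113740694, other strand: cccacggcctcgGACGTGgcagctcaaaac
Copb1, chr7:114254690-114254719, other strand: aagtccttggctGACGTGgaagggggcggg
Srpr, chr9:35211179-35211208, gene strand: ggctgctggtgtGACGTGtcccgcgcttgg
Tmed3, chr9:89705228-89705257, gene strand: gatttctccggaGACGTGgcagacactaag
Tmed3, chr9:89704995-89705024, other strand: gccccctgaagaGACGTGgcgcgagctcag
Copb2, chr9:98563713-98563742, other strand: ggccaacccactGACGTGgaacttccggga
Sec63, chr10:42761463-42761492, other strand: ctcactgagggaGACGTGgcgcgcgcagca
Sar1a, chr10:61680117-61680146, other strand: caagcggggtaaGACGTGgcagcgtctgtc
Sec23a, chr12:59011993-59012022, gene strand: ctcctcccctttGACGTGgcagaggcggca
Ssr1, chr13:37994216-37994245, other strand: cccgccaccgtcGACGTGgcctctaagcgc
Sec24c, chr14:20674233-20674262, gene strand: gtgcctaaggccGACGTGgcagaaggagtg
Arf4, chr14:26638020-26638049, other strand: tgcgaactaccgGACGTGgagcccagcgaa
Arf4, chr14:26638036-26638065, other strand: gcccgctacgccGACGTGcgaactaccgga
Dad1, chr14:54254058-54254087, other strand: tccccctctggaGACGTGtactatagcctt
Kdelr3, chr15:79516316-79516345, gene strand: tgtcggcgtgggGACGTGagaagcgctgct
Kdelr3, chr15:79516367-79516396, other strand: tggccgcgcggtGACGTGgcggggcggcca

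Of these 18 cores, 8 were centred within 50 bases before the start site and 3 after it. *Arf4*, *Kdelr3* and *Tmed3* each held 2. The whole windows of *Tmed3* and *Kdelr3*, a p24 protein and a KDEL receptor that both rose, show the spacing of their 2 cores on the strand of the gene, with GACGTG or its reverse CACGTC in capitals.
Tmed3, chr9:89704994-89705293, - strand: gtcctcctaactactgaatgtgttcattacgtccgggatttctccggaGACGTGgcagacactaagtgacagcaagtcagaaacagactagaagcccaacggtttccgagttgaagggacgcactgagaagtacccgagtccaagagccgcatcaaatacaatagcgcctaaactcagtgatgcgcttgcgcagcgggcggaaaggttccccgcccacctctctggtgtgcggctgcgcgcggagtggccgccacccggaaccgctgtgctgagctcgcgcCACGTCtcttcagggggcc
Kdelr3, chr15:79516158-79516457, + strand: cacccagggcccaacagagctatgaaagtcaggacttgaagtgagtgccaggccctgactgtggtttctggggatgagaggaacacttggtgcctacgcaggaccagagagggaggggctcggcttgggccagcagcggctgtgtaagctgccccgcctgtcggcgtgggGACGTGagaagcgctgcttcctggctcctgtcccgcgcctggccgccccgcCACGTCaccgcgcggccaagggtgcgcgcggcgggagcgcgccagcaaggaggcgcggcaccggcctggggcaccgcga

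The stage change of members with and without the core was set side by side, without a test. Of the 15 members with it, 9 were called higher, with a median log2 fold change of 0.55. Of the 26 tested members with a window and no core, 17 were called higher, with a median of 0.76. The 6 members with the core that were not called were *Srp14*, *Sec23a*, *Sec24c*, *Sar1a*, *Sec63* and *Copb1*.

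In the signal recognition particle and its receptor, 4 of 7 tested genes rose and the median log2 fold change was 0.71. *Srp19*, which readies the particle's RNA for its signal-binding subunit, had the highest fold change. It was at 797, 760 and 658 normalised counts in 13.5 dpc samples 1, 2 and 3 and at 2004, 1065 and 1427 in the 15.5 dpc samples, a log2 fold change of 1.02 ± 0.22 (SE, adjusted p = 0.0176). *Srprb*, the membrane-anchored receptor subunit, had 673, 673 and 659 at 13.5 dpc and 1576, 980 and 1209 at 15.5 dpc, with a log2 fold change of 0.91 ± 0.17 (adjusted p = 0.0103). The stages did not overlap for either gene, and 15.5 dpc sample 1 was the highest. *Srpr*, the subunit that docks the particle, had 1633, 1663 and 1731 and then 2897, 2581 and 2768 normalised counts (log2 fold change 0.71 ± 0.088, adjusted p = 0.00221). *Srp68*, part of the dimer that holds the particle's RNA, also rose, by a fold of 1.54 (adjusted p = 0.00564), and its partner *Srp72* had the lowest fold change of the class. *Srp72* was at 2081, 2053 and 2113 at 13.5 dpc and at 2092, 2756 and 2434 at 15.5 dpc, where sample 1 lay within the range of the earlier stage (log2 fold change 0.22 ± 0.11, adjusted p = 0.193). It was called higher with the length trend removed (adjusted p = 0.00369) and without 15.5 dpc sample 1 (0.0199), whereas without sample 2 its log2 fold change was 0.13 (0.281).

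*Srp9* and *Srp14* form the dimer that slows translation, and neither passed the test with all 6 samples in edgeR without a length correction. *Srp9* was at 502, 547 and 456 at 13.5 dpc and 1272, 556 and 777 at 15.5 dpc, with a log2 fold change of 0.79 ± 0.28 and an adjusted p of 0.0794, and its stages did not overlap. *Srp14* overlapped between the stages, with a fold of 1.3 (adjusted p = 0.274). *Srp9* was called with DESeq2 (adjusted p = 0.0265), with the length trend removed (0.0411) and without 15.5 dpc sample 2 (0.00277), and *Srp14* without 15.5 dpc sample 2 (0.0128). Without 15.5 dpc sample 1 the log2 fold change of *Srp9* was 0.41 (adjusted p = 0.0634) and that of *Srp14* 0.066 (0.748). Both were highest in 15.5 dpc sample 1, by a ratio to sample 2 of 2.29 for *Srp9* and 2.04 for *Srp14*. *Srp54a*, which encodes the signal-binding subunit, had 3 to 8 raw counts per sample and was not tested, and 70.5% of its 50-base windows also occur in transcripts of other genes. Without one or another sample, the calls of *Srp19* and *Srprb* were lost. *Srp19* lost it without 13.5 dpc sample 1, 2 or 3 or 15.5 dpc sample 3 (adjusted p up to 0.0838), and *Srprb* without 13.5 dpc sample 1, 2 or 3 (up to 0.0545). *Srpr* and *Srp68* kept theirs. Of the windows of *Srprb*, 19.9% were shared, mostly with an overlapping gene model on the same strand, so its counts are less certain.

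Of the channel genes, the 3 subunits of Sec61 each rose about 2-fold or more, and the class median was 0.99. *Sec61b*, the beta subunit, was at 1156, 1153 and 1081 normalised counts at 13.5 dpc and 4736, 1910 and 2826 at 15.5 dpc, a log2 fold change of 1.48 ± 0.30 (adjusted p = 0.0138). *Sec61a1*, which forms the pore, was at 4868, 4770 and 5065 and then 10707, 8934 and 9648 (log2 fold change 0.99 ± 0.10, adjusted p = 0.00111). *Sec61g*, the gamma subunit, had only 21.9, 28.3 and 18.7 and then 54, 41.9 and 50.4 normalised counts, with a fold of 2.12 (adjusted p = 0.0145). In all 3 genes the lowest 15.5 dpc sample was above the highest 13.5 dpc sample. The spread at 15.5 dpc was much wider for *Sec61b*, where sample 1 was 2.48 times sample 2, than for *Sec61a1*, where it was 1.2 times.

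*Sec62* and *Sec63* encode partners of the channel that help chains with weak signal peptides to enter. *Sec62* rose by a fold of 1.28 (adjusted p = 0.0309), a call that was lost with scaling by library size alone (0.253), without a filter on low counts (0.0594) and with a replicate block (0.0854). *Sec63* had the lowest fold change of the class. It was at 1536, 1637 and 1546 at 13.5 dpc and 1784, 1926 and 1769 at 15.5 dpc, wholly higher but not called (log2 fold change 0.22 ± 0.085, adjusted p = 0.107). With the length trend removed it was called, at 0.49 (adjusted p = 0.015). *Sec61b* lost its call without 13.5 dpc sample 1, 2 or 3 (adjusted p up to 0.0687), *Sec61g* without 13.5 dpc sample 1 or 3 or 15.5 dpc sample 3 (up to 0.0715), and *Sec62* without any one 13.5 dpc sample or 15.5 dpc sample 3 (up to 0.136). *Sec61a1* kept its call in every such fit. Shared windows made up 17.4% for *Sec61b*, 14.8% for *Sec61g* and 10.6% for *Sec62*.

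All 4 genes of TRAP, which sits beside the channel and helps some chains to enter, rose, with a median log2 fold change of 1.10. *Ssr4*, the delta subunit, was at 1426, 1440 and 1397 at 13.5 dpc and 4812, 2380 and 3119 at 15.5 dpc (log2 fold change 1.27 ± 0.24, adjusted p = 0.0103). *Ssr2*, the beta subunit, was at 4532, 4567 and 4374 and then 14697, 7325 and 9646 (log2 fold change 1.23 ± 0.23, adjusted p = 0.0112). These 2 genes had the widest spread of the class at 15.5 dpc, with sample 1 at 2.02 and 2.01 times sample 2. *Ssr1*, the alpha subunit, was at 5119, 5327 and 5014 and then 11340, 8887 and 10130 (log2 fold change 0.97 ± 0.11, adjusted p = 0.00172). *Ssr3*, the gamma subunit, had the lowest fold change, with 5029, 4975 and 4611 at 13.5 dpc and 8910, 7785 and 8230 at 15.5 dpc (log2 fold change 0.77 ± 0.095, adjusted p = 0.00222). The stages did not overlap for any of the 4. *Ssr1* and *Ssr3* kept the call whichever sample was left out, whereas *Ssr2* and *Ssr4* lost it without 13.5 dpc sample 1, 2 or 3 (adjusted p up to 0.0585 and 0.0548).

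In the signal peptidase complex 4 of 5 genes rose, and the median log2 fold change was 1.03. *Sec11c*, one of the alternative catalytic subunits, had the largest fold change of all 51 members. It was at 230, 265 and 211 normalised counts at 13.5 dpc and at 1259, 527 and 822 at 15.5 dpc (log2 fold change 1.88 ± 0.30, adjusted p = 0.00568). *Sec11a*, the other catalytic subunit, was at 1479, 1471 and 1296 and then 2247, 1531 and 1759, a fold of 1.3 that was not called (adjusted p = 0.104) except without 15.5 dpc sample 2 (0.00901) and in a fit with a replicate block and no length trend (0.0415). Without 15.5 dpc sample 1 the log2 fold change of *Sec11a* was 0.22 (adjusted p = 0.131). Both genes were wholly higher at 15.5 dpc, but the lowest 15.5 dpc sample of *Sec11a* was close above its highest 13.5 dpc sample. *Spcs3*, an accessory subunit needed for activity, was at 1762, 1814 and 1730 and then 4770, 3600 and 4254 (log2 fold change 1.25 ± 0.12, adjusted p = 0.000976). *Spcs1* was at 1145, 1197 and 1044 and then 3276, 1567 and 2084 (log2 fold change 1.03 ± 0.25, adjusted p = 0.0254), and *Spcs2* at 2484, 2584 and 2269 and then 6165, 3532 and 4419 (log2 fold change 0.94 ± 0.20, adjusted p = 0.0152). *Spcs1* and *Spcs2* are likewise accessory subunits, and neither overlapped between the stages. Both lost the call without any one 13.5 dpc sample or without 15.5 dpc sample 3 (adjusted p up to 0.106 and 0.0765). *Spcs3* and *Sec11c* kept it. Exons of *Spcs1* overlap those of a gene on the opposite strand over 17.9% of their length.

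In the oligosaccharyltransferase 6 of 7 genes rose, with a median log2 fold change of 0.78. *Dad1*, a small subunit found in all forms of the enzyme, had the highest fold change, with 1358, 1313 and 1442 at 13.5 dpc and 4088, 1915 and 2692 at 15.5 dpc (log2 fold change 1.08 ± 0.25, adjusted p = 0.0223). *Ostc*, which tethers the form with STT3A to the channel, was at 2030, 2005 and 1823 and then 5392, 2840 and 3771 (log2 fold change 1.03 ± 0.22, adjusted p = 0.0159). Both were highest in 15.5 dpc sample 1 and lowest in sample 2, with no overlap between the stages. The ribophorin genes *Rpn1* and *Rpn2* encode structural subunits. *Rpn1* was at 4875, 4869 and 4951 and then 11287, 7515 and 9197 (log2 fold change 0.93 ± 0.15, adjusted p = 0.00588), and *Rpn2* at 4980, 5273 and 5376 and then 9625, 8333 and 8838 (log2 fold change 0.78 ± 0.10, adjusted p = 0.00218). *Ddost*, also present in every form, was at 5325, 5300 and 5338 and then 10493, 7593 and 8700 (log2 fold change 0.75 ± 0.13, adjusted p = 0.00767). The stages did not overlap for these 3.

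Each form of the oligosaccharyltransferase holds one of the alternative catalytic subunits. *Stt3a*, which glycosylates chains as they enter, was at 3377, 3530 and 3569 normalised counts at 13.5 dpc and 5579, 5913 and 6072 at 15.5 dpc (log2 fold change 0.75 ± 0.086, adjusted p = 0.0017). *Stt3b*, which glycosylates sites that were skipped, was at 2972, 2939 and 3102 and then 2995, 3746 and 3474, with 15.5 dpc sample 1 inside the earlier range (log2 fold change 0.18 ± 0.11, adjusted p = 0.242). It was called higher with the length trend removed, at 0.25 (adjusted p = 0.0357), where all 7 genes of the class were called, and without 15.5 dpc sample 1, at 0.27 (0.0323). Without sample 2 *Stt3b* was at 0.12 (0.338), and with scaling by library size alone at -0.023 (0.91). *Dad1* and *Ostc* lost the call without any one 13.5 dpc sample or 15.5 dpc sample 3 (adjusted p up to 0.0909 and 0.0783), and the other 4 kept it.

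**Figure D3:**
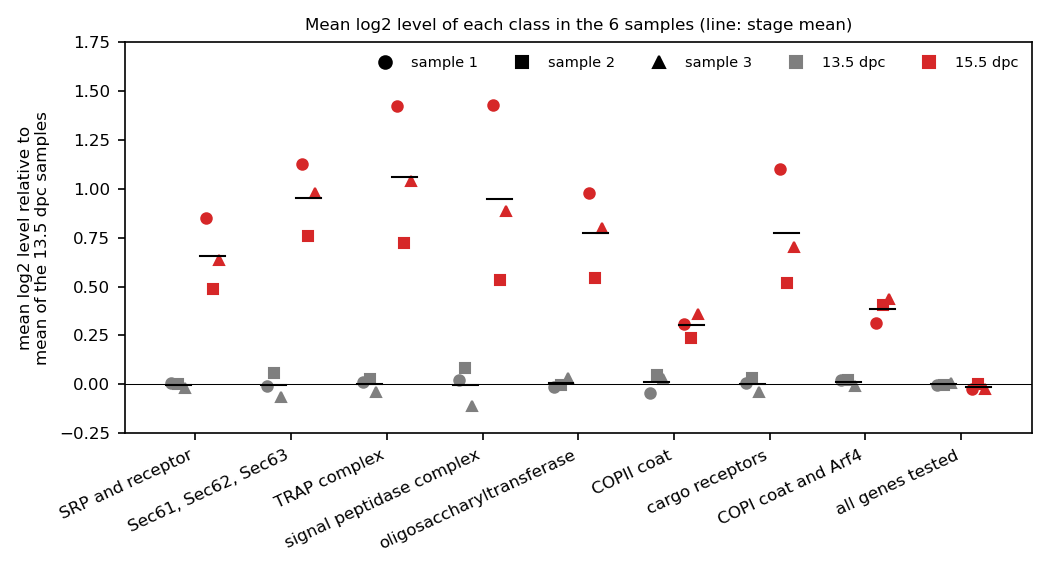
Median over the tested genes of each class of log2 normalised counts relative to the mean of the 13.5 dpc samples (y axis), in each of the 6 samples. Grey symbols are for 13.5 dpc, red symbols for 15.5 dpc and lines for the stage means. The axis and title of the figure call these medians means. Sample 1 was the highest at 15.5 dpc in 6 classes, from 0.85 to 1.43, and the COPII and COPI classes lay between 0.24 and 0.44.

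The COPII coat had fold changes in both directions. Of its 10 genes 3 were called higher and 0 lower, beside 11.6% and 10.7% of all genes, and the median log2 fold change was 0.35. At an unadjusted p of at most 0.05, 6 were higher and 1 lower, beside 3147 and 2943 of all 15578 genes. DESeq2 called 4 higher and 0 lower, beside 15.2% and 12.2% of all genes. *Sec23b*, an inner coat protein that activates the GTPase SAR1, was at 1199, 1357 and 1302 normalised counts at 13.5 dpc and 2935, 2681 and 2806 at 15.5 dpc (log2 fold change 1.13 ± 0.092, adjusted p = 0.00067). *Sec23a*, its paralogue, was at 853, 904 and 846 and then 569, 756 and 719, wholly lower at 15.5 dpc but not called (log2 fold change -0.35 ± 0.12, adjusted p = 0.0814). In the mm10 annotation *Sec23b* (ENSMUSG00000027429) lies at chr2:144556229-144590749 on the + strand and *Sec23a* (ENSMUSG00000020986) at chr12:58958383-59012017 on the - strand. *Sec23a* was called lower without 15.5 dpc sample 2, at -0.41 (adjusted p = 0.0205), and with scaling by library size alone, at -0.55 (adjusted p = 0.0467).

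The SEC24 proteins select cargo for the vesicle. *Sec24d* was at 1135, 1187 and 1255 at 13.5 dpc and 1773, 2163 and 2107 at 15.5 dpc and rose (log2 fold change 0.76 ± 0.11, adjusted p = 0.00365). *Sec24c*, the most abundant of the 4 per length, was at 3031, 3025 and 3128 and then 2938, 3583 and 3124 (log2 fold change 0.07 ± 0.10, adjusted p = 0.623). *Sec24b* was at 902, 1031 and 1024 and then 626, 1009 and 808 (log2 fold change -0.27 ± 0.17, adjusted p = 0.27). Of the 4, only *Sec24d* did not overlap between the stages. *Sec24a* was at 327, 346 and 394 and then 327, 602 and 482, with 15.5 dpc sample 1 no higher than the 13.5 dpc samples (log2 fold change 0.41 ± 0.21, adjusted p = 0.197). With the length trend removed *Sec24a*, the longest of the members at 10683 bases of exon, was called higher, at 0.68 (adjusted p = 0.00131), as it was without 15.5 dpc sample 1 (0.00676). Without 15.5 dpc sample 2 the log2 fold change of *Sec24a* was 0.20 (adjusted p = 0.35) and that of *Sec24c* -0.00048 (0.996). *Sec24b* was called lower without 15.5 dpc sample 2, at -0.44 (adjusted p = 0.0223), and was at -0.11 without sample 1 (0.499).

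Of the other COPII genes, *Sec13*, which forms the outer cage with *Sec31a*, rose by a fold of 1.47 (adjusted p = 0.0331). That call was lost with scaling by library size alone (0.066) and without any one 13.5 dpc sample or 15.5 dpc sample 3 (adjusted p up to 0.13). *Sec31a* (fold 1.23, adjusted p = 0.0886) and the GTPase genes *Sar1a* (1.23, 0.109) and *Sar1b* (1.34, 0.125) were not called. *Sec31a* was called higher with DESeq2 (adjusted p = 0.0477), with the length trend removed (0.00943) and without 15.5 dpc sample 1 (0.0137), and *Sar1a* (0.00877) and *Sar1b* (0.00625) without 15.5 dpc sample 2. Without 15.5 dpc sample 1 the log2 fold change was 0.20 for *Sar1a* (adjusted p = 0.142) and 0.24 for *Sar1b* (0.205). The stages overlapped for *Sar1b* and not for *Sec31a* or *Sar1a*.

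All 8 cargo and retrieval receptor genes rose, and their stages did not overlap. The median over the class was 0.75 on the log2 scale. *Tmed3*, a p24 protein of the vesicle membrane, had the highest fold change of the class, with 1467, 1561 and 1543 at 13.5 dpc and 6170, 2999 and 4016 at 15.5 dpc (log2 fold change 1.53 ± 0.24, adjusted p = 0.00572). *Mcfd2*, the soluble partner of the lectin receptor LMAN1 that carries clotting factors, was at 1626, 1685 and 1610 and then 5814, 3409 and 4342 (log2 fold change 1.46 ± 0.19, adjusted p = 0.00251). *Lman1* itself rose by a fold of 1.52 (adjusted p = 0.00287), and its 15.5 dpc samples were close together, from 3927 to 3993. *Tmed2*, another p24 protein, was at 642, 637 and 581 and then 1720, 940 and 1210 (log2 fold change 1.05 ± 0.21, adjusted p = 0.013). Its partner *Tmed10* had the lowest fold change of the class, with 1878, 1918 and 1804 and then 2859, 2533 and 2831 (log2 fold change 0.55 ± 0.090, adjusted p = 0.00615). The 5 genes thus included some with a wide spread at 15.5 dpc, where sample 1 was 2.06 times sample 2 for *Tmed3*, and some with almost none.

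The KDEL receptors return escaped ER chaperones from the Golgi, and all 3 genes rose. *Kdelr3* was at 333, 320 and 291 at 13.5 dpc and 743, 410 and 521 at 15.5 dpc (log2 fold change 0.82 ± 0.21, adjusted p = 0.0305). *Kdelr2* was at 2757, 2618 and 2556 and then 5014, 3200 and 3941 (log2 fold change 0.62 ± 0.16, adjusted p = 0.0333). *Kdelr1* rose by a fold of 1.59 (adjusted p = 0.0249). Scaling by library size alone ended the call of *Kdelr2* (0.0514). All 3 calls were lost without any one 13.5 dpc sample or 15.5 dpc sample 3 (adjusted p up to 0.102, 0.125 and 0.119 for *Kdelr1*, *Kdelr2* and *Kdelr3*). Of the other receptors, *Tmed2* lost it without 13.5 dpc sample 1, 2 or 3 (up to 0.0671), and *Tmed3*, *Tmed10*, *Lman1* and *Mcfd2* kept it. Shared windows made up 22% for *Tmed2*.

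In the COPI class 3 of 5 genes rose, and the median log2 fold change was 0.39. *Cope*, the epsilon subunit of the coat, was at 2071, 2012 and 2018 at 13.5 dpc and 5455, 3082 and 3649 at 15.5 dpc (log2 fold change 1.00 ± 0.20, adjusted p = 0.0138). *Copb1*, the beta subunit, had the lowest fold change, with 2369, 2367 and 2270 and then 2483, 2796 and 2641 (log2 fold change 0.18 ± 0.087, adjusted p = 0.174). The stages did not overlap for any of the 5 genes, though for *Copb1* they were close. *Copb2*, another coat subunit, rose by a fold of 1.31 (adjusted p = 0.0186), and *Arf4*, a small GTPase of the early secretory pathway, by 1.47 (adjusted p = 0.04). *Copa*, the alpha subunit, had a fold of 1.24 that was not called (adjusted p = 0.0768) and passed the test once the length trend was removed, at 0.59 on the log2 scale (adjusted p = 0.00193), as it did with DESeq2 (0.0298) and without 15.5 dpc sample 1 (0.0105). All 3 calls of the class were lost without 13.5 dpc sample 1, 2 or 3 (adjusted p up to 0.0665, 0.109 and 0.151 for *Cope*, *Copb2* and *Arf4*), and those of *Copb2* and *Arf4* also without 15.5 dpc sample 3. Scaling by library size alone ended the calls of *Copb2* (adjusted p = 0.242) and *Arf4* (0.0721) and turned the log2 fold change of *Copb1* to -0.031. A replicate block ended the call of *Copb2* (0.0625). Of the exons of *Arf4*, 22.6% overlap those of *Arf4os* and *Pde12* on the opposite strand.

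Subunits that can replace one another did not always move together. The ratio of the per-length levels of such a pair was compared between the stages in 9 pairs, with an exact two-sided permutation test whose smallest p with 3 samples against 3 is 0.1, or 0.15 after adjustment over the pairs. The ratio of *Sec23b* to *Sec23a* was 1.08, 1.15 and 1.18 in the 13.5 dpc samples and 3.96, 2.73 and 3.00 in the 15.5 dpc samples, 2.80 times higher at the later stage (p = 0.1, exact). The share of *Sec23b* in the pair was 53.2% ± 1.16 (SD, n = 3) at 13.5 dpc and 76.0% ± 3.46 at 15.5 dpc. *Sec11c* over *Sec11a* was 0.233, 0.269 and 0.244 and then 0.838, 0.515 and 0.699, 2.70 times higher. In both pairs every 15.5 dpc sample had a higher ratio than every 13.5 dpc sample. The share of *Sec11c* was 19.9% ± 1.19 at 13.5 dpc and 40.3% ± 5.86 at 15.5 dpc (SD, n = 3).

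Smaller shifts, with the smallest possible p and no overlap, were found in 4 further pairs. *Stt3a* over *Stt3b* was 0.679, 0.718 and 0.688 and then 1.11, 0.944 and 1.05, 1.49 times higher. *Sec24d* over *Sec24c* was 0.432, 0.453 and 0.463 and then 0.696, 0.696 and 0.778, 1.61 times higher. *Sec24a* over *Sec24b* was 0.204, 0.189 and 0.217 and then 0.294, 0.336 and 0.336, 1.58 times higher. *Sec24d* thus went from 25.9% ± 0.436 to 36.7% ± 1.5 of the 4 *Sec24* genes (SD, n = 3), and *Sec24c* from 57.7% ± 1.12 to 50.8% ± 1.74. *Kdelr3* over *Kdelr2* was only 1.14 times higher. The ratios *Sar1b* over *Sar1a*, *Kdelr2* over *Kdelr1* and *Kdelr3* over *Kdelr1* overlapped between the stages, with exact p of 0.4, 0.2 and 0.2. With these sample numbers the test could not pass a threshold of 0.05 for any of the 9 pairs.

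**Figure D4:**
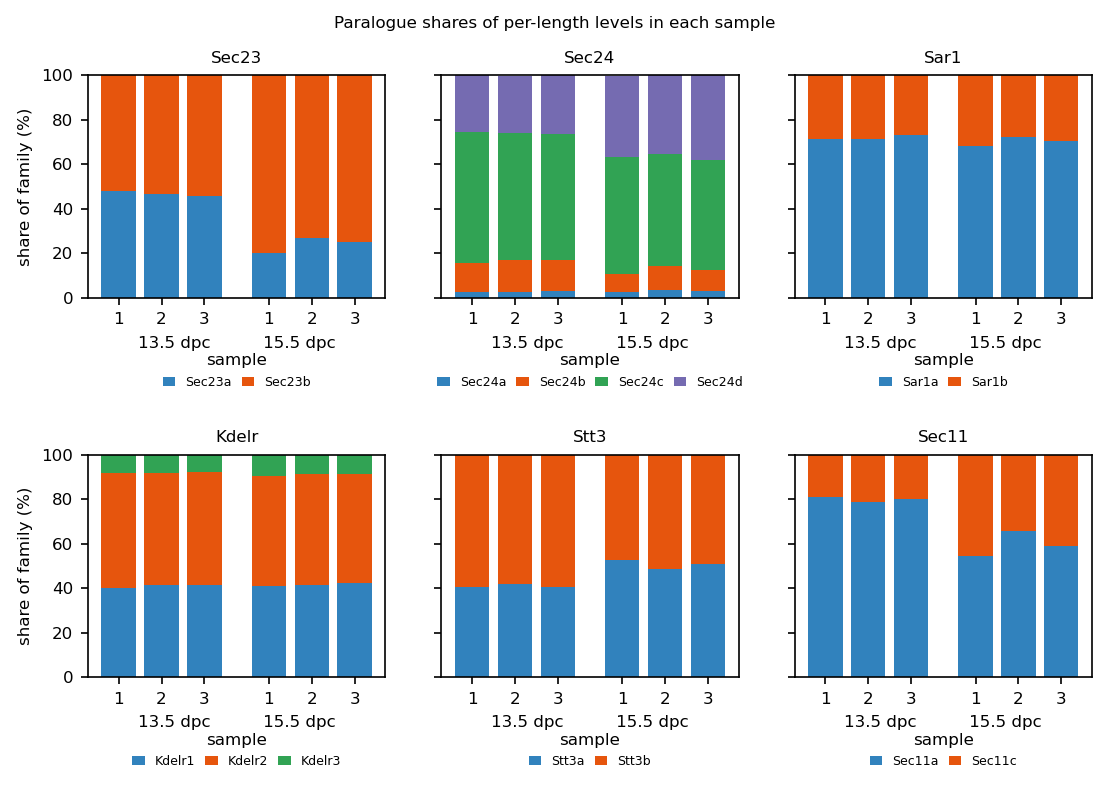
Share of each paralogue in the summed per-length level of its family (y axis, percent), one bar for each of the 3 samples of 13.5 and of 15.5 dpc. The share of *Sec23b* was 53.2% on average at 13.5 dpc and 76.0% at 15.5 dpc, and that of *Sec11c* 19.9% and 40.3%, and the share of *Sar1b* was 28.0% and 29.7%.

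The 15.5 dpc samples themselves differed in a regular way over the members. In 37 of 51 members, or 72.5%, sample 1 was the highest, sample 3 next and sample 2 the lowest, an order found in 35.8% of all genes tested. The summed acinar markers had the same order, at 6.78%, 4.67% and 3.36% of the counts in samples 1, 3 and 2. The sums of the endocrine markers (0.329%, 0.279% and 0.241%) and the erythroid markers (0.298%, 0.196% and 0.126%) had it too. Of the endocrine genes, *Ins1*, *Ins2*, *Gcg* and *Chga* had this order, *Pax6*, *Isl1* and *Neurod1* the reverse, and the others neither. The sum of the liver markers (0.0726%, 0.0555% and 0.0456%) had the order of samples 1, 3 and 2 as well. Most of that sum was *Ttr*, also an islet gene. Of the other liver markers, *Afp* and *Serpina1a* had this order, and *Alb*, *Apoa1* and *Fgb* had other orders. The mesenchyme, endothelium and neural markers had the reverse order, and the duct and macrophage markers neither. The part of these cell types in the result was not tested. The median level over the genes of the COPI class had another order, with sample 1 the lowest at 0.31 and sample 3 the highest at 0.44. These values are on the log2 scale relative to 13.5 dpc. Of the COPI class, *Cope* and *Arf4* were highest in sample 1. By the same median, sample 3 was the highest in the COPII class at 0.36 and sample 2 the lowest at 0.24. Each single COPII gene was highest in either sample 1 or sample 2.

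Exon length moved with this order. Among the 26 tested members with at most 3364 bases of exon, the median ratio of 15.5 dpc sample 1 to sample 2 was 1.73, and among the 25 longer members it was 1.09. The shorter members were called higher in 21 of 26 and the longer in 15 of 25, with medians of 0.81 and 0.61. With the length trend removed, 22 and 21 were called, with medians of 0.67 and 0.80. The part of length in the differences between single members was not tested further. In that fit the median of the signal recognition particle went from 0.71 to 0.57, that of the signal peptidase complex from 1.03 to 0.89, and that of the COPI class from 0.39 to 0.50.

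**Figure D5:**
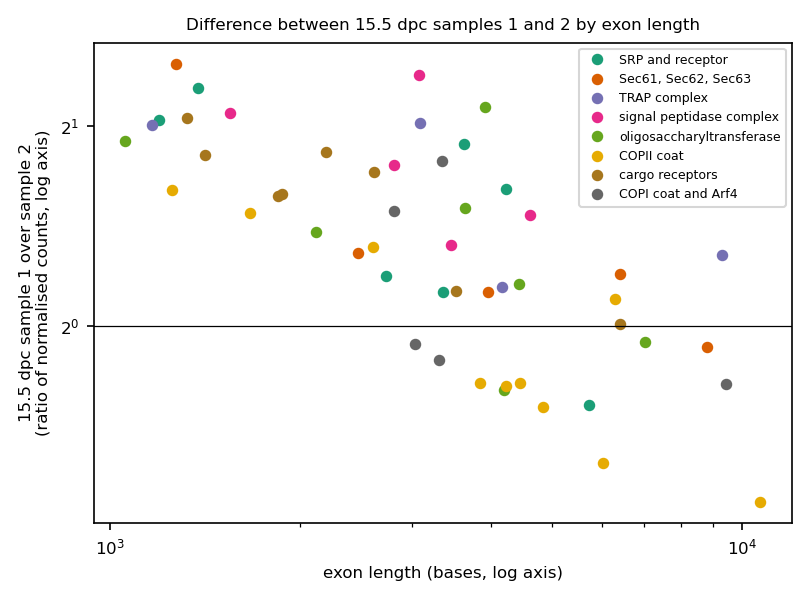
Ratio of normalised counts in 15.5 dpc sample 1 to those in sample 2 (y axis, logarithmic) against exon length in bases (x axis, logarithmic) for the 51 members tested, coloured by class. The ratio reached 2.48 for *Sec61b*, among the shortest genes, and was lowest at 0.542 for *Sec24a*, the longest.

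Only uniquely aligned reads were counted, and 11 members shared over 10% of their 50-base windows with transcripts of other genes. Over the 41 members at or below that share, 27 rose and 0 fell with edgeR, beside 11.6% and 10.7% of all genes. The median log2 fold change was 0.67. At an unadjusted p of at most 0.05, 33 were higher and 1 lower, beside 3147 and 2943 of all 15578 genes. DESeq2 called 29 higher and 0 lower, beside 15.2% and 12.2% of all genes.

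Other genes of the same pathway were held in 10 lists of 130 genes. Of 129 tested, 49 rose and 1 fell, with a median log2 fold change of 0.33, beside the 11.6% of all genes that rose and the 10.7% that fell. Those shares also stand behind the counts of each list, several of which hold few genes. In the list of post-translational targeting and other SRP54 genes 2 of 9 rose, the higher being *Tmem208* (log2 fold change 0.82 ± 0.24, adjusted p = 0.0471). The median of that list was 0.30, and 0.067 with the length trend removed. Among other translocon and insertase genes 8 of 18 rose and 1 fell. *Tram1*, a membrane protein beside the channel, was at 2146, 2186 and 1994 and then 5836, 4395 and 5114 (log2 fold change 1.28 ± 0.12, adjusted p = 0.000981). *Sec61a2*, the paralogue of *Sec61a1*, was at 528, 570 and 510 and then 343, 428 and 395 (log2 fold change -0.46 ± 0.11, adjusted p = 0.0282). The pore-forming paralogues thus moved in opposite directions. Of the 5 other oligosaccharyltransferase subunits 3 rose, with *Krtcap2* the highest, by a fold of 3.04 (adjusted p = 0.00897).

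In dolichol-linked glycan synthesis 7 of 22 genes rose, with *Alg5* the highest (log2 fold change 0.84 ± 0.16, adjusted p = 0.0107), and in N-glycan trimming 3 of 8, with *Man1a* the highest (log2 fold change 0.75 ± 0.092, adjusted p = 0.00215). Of other COPII and ER exit site genes 4 of 11 rose, led by *Preb*, the exchange factor for SAR1 (log2 fold change 0.81 ± 0.10, adjusted p = 0.00226). Among other p24 proteins and cargo receptors 6 of 17 rose. *Tmed6* was at 416, 545 and 440 normalised counts at 13.5 dpc and 4008, 1630 and 2297 at 15.5 dpc (log2 fold change 2.50 ± 0.32, adjusted p = 0.00264), a larger fold change than that of any member. Of other COPI and Arf genes 5 of 13 rose, led by *Arfgap3*, which switches ARF off (log2 fold change 1.18 ± 0.10, adjusted p = 0.00067). Of ER-Golgi SNAREs, tethers and Rabs 8 of 20 rose, led by the SNARE gene *Bet1* (log2 fold change 0.89 ± 0.19, adjusted p = 0.0159).

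Of 6 transcription factors known for setting secretory capacity, 3 rose. *Bhlha15*, which encodes MIST1 of acinar cells, was at 959, 971 and 1074 at 13.5 dpc and 5360, 4078 and 4679 at 15.5 dpc (log2 fold change 2.23 ± 0.13, adjusted p = 0.000309). *Xbp1*, the factor of the unfolded protein response named above with the core GACGTG, was at 3128, 3395 and 3348 and then 9380, 6262 and 7829 (log2 fold change 1.25 ± 0.15, adjusted p = 0.00212). *Creb3l1* rose by a fold of 1.48 (adjusted p = 0.00481), and *Atf6* was not called (log2 fold change 0.48 ± 0.15, adjusted p = 0.0614). The stages did not overlap for any of these 4 genes. They overlapped for the other 2, *Atf6b* (log2 fold change 0.23, adjusted p = 0.153) and *Creb3l2* (-0.21, 0.378), neither of which was called.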

How the data were processed

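Raw counts per gene of 3 wt pancreas samples at 13.5 dpc and 3 at 15.5 dpc were used as deposited. The authors aligned reads to mm10 with GSNAP and counted uniquely aligned reads on Ensembl release 69 genes with featureCounts 1.4.6, after bcl2fastq 1.8.4. The strand setting is not given in the sources used here. The exon length of each gene, another value the authors deposited from featureCounts, was used for FPKM and the length trend. Symbols and positions came from GENCODE M21 (35449 of 37224 identifiers matched).

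The members and lists were chosen with earlier results of these data known. Counts were fitted in R 4.3.3 with edgeR 4.0.16 (filterByExpr, TMM, quasi-likelihood test over all 15578 genes kept, no covariate, Benjamini-Hochberg adjustment). Normalised counts refer to one common library size, the geometric mean over the 6 samples after TMM, and an SE is the size of the log2 fold change over the root of the F statistic. Values in each sample are given for the highest and lowest fold change of each class, for paralogues whose ratios did not overlap, and for members called with a fold above 1.6 or below 0.6. Of the other pathway lists, the highest and lowest genes called are named. *Creb3l1*, *Xbp1*, *Atf6*, *Atf6b* and *Creb3l2* were added after their values were seen. Alternatives were DESeq2 1.42.0, other scalings and filters, a replicate block, removal of a lowess trend with exon length, and leaving out each sample. The edgeR fit was tested on simulated counts with one common dispersion and no length trend. That test does not cover the unequal spread or the length trend of these samples. Figures were drawn with Python 3.11.15.

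With total counts of 10546028 to 16389237, p-values measure the spread between pools of embryos. Each sample differed from the others by more than counting error.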

Additional observations from a re-analysis of the deposited data

How the results depend on the processing

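Over 16 alternatives, 705 of 816 comparisons of single members kept their direction and side of the threshold, 77 were no longer called, 30 became called and 4 changed sign. Of the 51 members, 17 were unaffected by any of these alternatives and 35 by those that kept all 6 samples. Scaling by library size alone, which moves the median of all genes to -0.22, gave 31 members called higher (7.27% of all genes) and 1 lower (18.9%), a median over the members of 0.54, and class medians of 0.50 (signal recognition particle), 0.77 (Sec61), 0.56 (oligosaccharyltransferase), 0.14 (COPII), 0.52 (receptors) and 0.18 (COPI). It ended the calls of *Sec62*, *Sec13*, *Kdelr2*, *Copb2* and *Arf4* and turned *Stt3b* to -0.023, *Sec24c* to -0.13 and *Copb1* to -0.031. The length trend removed gave medians of 0.57 (signal recognition particle), 0.89 (signal peptidase complex), 0.30 (COPII) and 0.50 (COPI), and log2 differences in ratio of 0.81 for *Sec24a* over *Sec24b*, 0.71 for *Stt3a* over *Stt3b* and -0.071 for *Sar1b* over *Sar1a*. With an adjusted p of at most 0.1, 39 members were higher (17.6% of all genes) and 1 lower (16.5%). With folds below 0.5 or above 2, 13 passed the study's thresholds, all of them higher (3.22% of protein-coding genes).

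With 1 sample left out, the members called higher ranged from 17 to 41 and those called lower from 0 to 2, the 2 being *Sec23a* and *Sec24b* without 15.5 dpc sample 2. The median ranged from 0.56 to 0.77 for the signal recognition particle and from 0.70 to 1.26 for the signal peptidase complex, both lowest without 15.5 dpc sample 1, and *Sec24c* ranged from -0.00048 to 0.13. The cause was not tested. Samples with the same number did not deviate together (correlations of 0.21, -0.21 and 0.03), so the numbers were not taken as pairs. With the replicate block, 34 members were called higher (9.15% of all genes), *Sec62* (adjusted p = 0.0854) and *Copb2* (0.0625) no longer being called. With the block and the length trend removed, 43 were called (15.5% of all genes), with medians of 0.57 (signal recognition particle), 0.29 (COPII) and 0.50 (COPI). Only *Sec61g* and *Srp54a* had low counts. Both share windows with transcripts of other genes, 14.8% and 70.5%, and only uniquely aligned reads were counted. The part of depth and of shared sequence in these low counts was not tested.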
